A study of Mus musculus with 6 samples.

Results

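BMP ligands and the ID genes that BMP signalling is known to switch on were followed in serum-starved NIH3T3 cells, a widely used line of mouse embryonic fibroblasts. The genes were chosen by symbol: Bmp2, Bmp4, Bmp6, Gdf5, Id1, Id2, Id3, Id4, Smad6 and Smad9. Of these 10 symbols, 9 matched a row among the 16000 genes of the count and FPKM tables, and Bmp2 was not analysed here. Of the 9 genes, 7 passed the filter on low counts and were among the 11972 genes tested. Gdf5 passed that filter through its counts in the knockout libraries, so its difference is partly built into its being tested.

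The knockout cells were labelled RAI16 KO, with the genotype entry Rai16 KO, and the cells they were set against were labelled wild type (WT). There were 3 libraries of polyadenylated RNA per group, called KO1 to KO3 and WT1 to WT3 here after the replicate numbers in their titles, and all 6 came from serum-starved cells. The sources used here do not state how the gene was disrupted, whether the knockout libraries derive from 1 clone, or whether each library had a culture of its own. The spread on which the p-values rest is that between these libraries and may be technical.

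BMP ligands are secreted dimers of the TGF-beta superfamily that join type I and type II receptor kinases at the cell surface. The activated receptors phosphorylate SMAD1, SMAD5 and SMAD9, which enter the nucleus with SMAD4 and act on genes such as those of the ID family. ID proteins have a helix-loop-helix domain but no DNA-binding region, so they hold basic helix-loop-helix (bHLH) factors such as the E proteins away from DNA. SMAD6 is an inhibitor of the same branch and is itself induced by it. In fibroblasts ID genes also respond to serum, which was withdrawn here.

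The proximal promoters of Id2, Id4, Smad9, Id3 and Smad6 are shown as RefSeq gives them in build GRCm38.p6. They were searched for the exact strings GGCGCC and GTCTAGAC alone. Other SMAD sites, in these windows or outside them, were not looked for. Each runs 5′ to 3′ from 250 bases before the annotated start to 20 bases from it. Capitals mark GGCGCC, the core that SMAD1 and SMAD5 bind in BMP response elements, or GTCTAGAC, the palindromic SMAD element.
Id2, chr12:25096073-25096342, minus strand: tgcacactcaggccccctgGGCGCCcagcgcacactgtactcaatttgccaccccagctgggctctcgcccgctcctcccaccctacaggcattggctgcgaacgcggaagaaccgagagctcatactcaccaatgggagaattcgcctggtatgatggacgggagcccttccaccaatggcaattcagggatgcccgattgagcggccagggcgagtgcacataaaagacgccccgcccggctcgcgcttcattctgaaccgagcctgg
Id4, chr13:48260866-48261135, plus strand: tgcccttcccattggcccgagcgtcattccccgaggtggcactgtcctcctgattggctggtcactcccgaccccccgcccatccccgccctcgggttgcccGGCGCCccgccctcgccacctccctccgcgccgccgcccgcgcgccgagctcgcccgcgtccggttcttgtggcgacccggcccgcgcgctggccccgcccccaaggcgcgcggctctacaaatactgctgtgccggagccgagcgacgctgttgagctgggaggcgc
Smad9, chr3:54755332-54755601, plus strand: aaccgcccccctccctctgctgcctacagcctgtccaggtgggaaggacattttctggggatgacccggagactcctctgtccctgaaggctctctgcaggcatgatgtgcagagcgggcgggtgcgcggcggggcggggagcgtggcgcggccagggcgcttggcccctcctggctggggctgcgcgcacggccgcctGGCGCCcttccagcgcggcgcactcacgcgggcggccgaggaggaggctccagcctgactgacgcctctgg
Id3, chr4:136143572-136143841, plus strand: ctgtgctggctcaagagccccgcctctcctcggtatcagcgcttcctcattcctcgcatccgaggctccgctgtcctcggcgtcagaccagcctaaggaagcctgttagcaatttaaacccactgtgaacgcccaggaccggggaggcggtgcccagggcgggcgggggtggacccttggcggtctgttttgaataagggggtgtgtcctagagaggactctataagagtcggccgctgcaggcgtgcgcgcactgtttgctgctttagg
Smad6, chr9:64022040-64022309, minus strand: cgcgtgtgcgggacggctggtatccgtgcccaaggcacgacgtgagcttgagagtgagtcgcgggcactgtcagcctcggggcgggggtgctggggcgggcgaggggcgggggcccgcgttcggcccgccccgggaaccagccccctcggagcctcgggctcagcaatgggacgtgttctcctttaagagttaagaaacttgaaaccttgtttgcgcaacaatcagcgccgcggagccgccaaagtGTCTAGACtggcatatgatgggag
The table of promoters matched 7 of the 10 symbols and had no entry for Bmp2, Gdf5 and Id1. GGCGCC stood in 3 of these 7 windows, 231 bases before the start in Id2, 148 bases before it in Id4 and 51 bases before it in Smad9. It was not found in the windows of Id3, Smad6, Bmp4 and Bmp6. GTCTAGAC was found in the window of Smad6, with its first base 4 bases before the start. Both motifs read the same on either strand and do not overlap each other. GGCGCC was present in 10.4% of all 32851 promoter windows of this length and in 27.9% of the 9388 windows with a GC content of at least 60%, a class that holds all 7. GTCTAGAC was present in 0.183% of all windows. Id2, Id4 and Smad9 are also the 3 members that were lower in knockout cells, but a link between motif and direction was not tested. Over all tested genes with a promoter in the table, GGCGCC was present in 19.0% of 2988 called higher in knockout, in 18.7% of 2723 called lower and in 18.5% of 3840 not called.

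Some facts of the libraries bear on these genes. Each library held between 16741607 and 18368760 counts. The transcript of the targeted gene, listed under its other symbol Fam160b2, averaged 21.9 ± 0.395 CPM in knockout and 23.8 ± 1.49 CPM in wild type (SD, n = 3 each; log2 fold change −0.12 ± 0.075 SE, adjusted p = 0.184, edgeR), and a count over the whole gene does not test for a small lesion. Of 9 fibroblast markers, 8 were tested, with 4 higher (Col1a1, Col1a2, Vim and Thy1) and 2 lower (Fn1 and Pdgfrb) in knockout. The sum over the list lay between 18871 and 22065 CPM in knockout and between 22807 and 23263 CPM in wild type, and Fn1, its most abundant gene, averaged 9196 ± 1951 CPM in knockout and 13984 ± 262 CPM in wild type (SD, n = 3 each). The library KO2 stood apart in 2 ways. It held 1591 counts of 6 skeletal muscle markers, against 12 counts each in KO1 and KO3 and 11, 21 and 14 counts in WT1, WT2 and WT3. The creatine kinase gene Ckm, at 405 counts in KO2, was at 0 in the other 5 libraries. Markers of epithelial, endothelial and leukocyte cells summed to at most 5.18, 6.87 and 2.98 CPM in any knockout library and to at most 2.01, 2.88 and 1.15 CPM in any wild-type library. The epithelial keratin gene Krt8 had 70, 86 and 81 counts in KO1, KO2 and KO3, against 21, 13 and 20 counts in WT1, WT2 and WT3. The endothelial gene Cdh5 (22, 51 and 23 counts in knockout, 2, 6 and 3 counts in wild type) and the leukocyte gene Csf1r (41, 36 and 22 counts in knockout, 6, 4 and 10 counts in wild type) passed the filter mainly through the knockout libraries, so the direction of their calls was largely set by it. Osteoblast and chondrocyte markers, mostly Sox9, summed to between 162 and 172 CPM in knockout and between 268 and 297 CPM in wild type. Of the other markers on that list, Dmp1 and Col10a1 passed the filter through the wild-type libraries alone, and the rest were not tested. The part of these markers in the results was not tested. KO2 was also shifted towards short genes, with a median deviation from the knockout mean of 0.23 (log2 CPM) for genes under 750 bases and −0.17 for genes of 6000 bases and over. For KO1 and KO3 the same medians were −0.12 and −0.11 for the short genes and 0.0931 and 0.0865 for the long ones. Their opposite sign follows from centring on a mean that includes KO2. Id1 (934 bases) and Id3 (953 bases) are short and Smad9 (6155 bases) is long, so the fold changes of the 7 tested members are given below also without KO2. In these bulk samples, fewer cells of a type and less RNA per cell cannot be told apart.

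**Figure D1:**
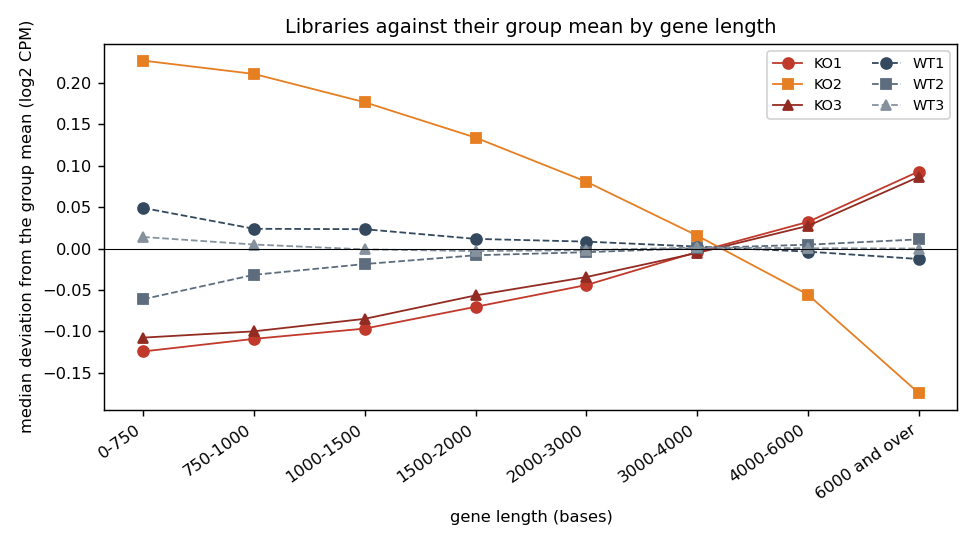
Median deviation of each library from its group mean (log2 CPM, vertical axis) for tested genes in 8 classes of gene length (bases, horizontal axis). KO2 runs from 0.23 in the shortest class to −0.17 in the longest, and the WT libraries stay between −0.06 and 0.05. KO1 and KO3 run the other way, which follows from centring on a mean that includes KO2.

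Among the 7 tested members, Gdf5 and Id3 were higher in knockout cells and Id2, Id4 and Smad9 were lower. Id1 and Smad6 did not pass the test. Calls rest on p-values adjusted by Benjamini and Hochberg over the whole table, with a threshold of 0.05. Of all tested genes 59.6% were called, 30.5% as higher and 29.2% as lower in knockout. The 5 calls among 7 members (2 higher, 3 lower) are therefore near the background of this comparison, and the number of calls is no result about these genes. The median size of the log2 fold change was 1.13 for the 7 members and 0.32 for all tested genes. The members were chosen with results of these data known, so this contrast is no result about them either. With signs, the median was 0.033 for the members and 0.0028 for all tested genes. For 6 of the 7 members the CPM ranges of the groups were separate, as they were for 67.6% of all tested genes.

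**Figure D2:**
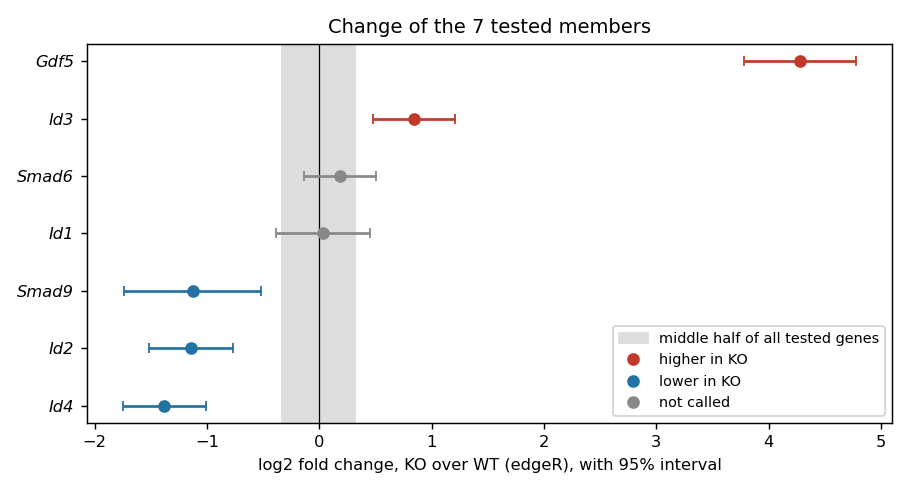
Log2 fold change of knockout over wild type for the 7 tested members (horizontal axis, points) with 95% intervals (bars), coloured by call. The grey band is the interquartile range of all tested genes (−0.33 to 0.32), and Gdf5, at 4.27, lies far to its right, while Smad9, Id2 and Id4 lie to its left.

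Gdf5 was the ligand that differed. It encodes growth and differentiation factor 5, a BMP-type ligand best known from joint formation in limb development, which signals mainly through the type I receptor BMPR1B. KO1, KO2 and KO3 held 130, 138 and 109 counts of Gdf5, against 7, 5 and 6 counts in WT1, WT2 and WT3. Every knockout library thus lay far above every wild-type library. The level averaged 6.90 ± 0.703 CPM in knockout and 0.35 ± 0.0526 CPM in wild type (SD, n = 3 each). Knockout over wild type gave a log2 fold change of 4.27 ± 0.22 (SE; 95% interval 3.77 to 4.77). The spread over wild type (15.05% of the mean) was below the 40.8% that counting error alone gives for such counts. The wild-type SD, this SE and this interval therefore understate the error, and DESeq2 gave 4.29 ± 0.40 (SE). The adjusted p of Gdf5 was 7.75e-07 (edgeR, quasi-likelihood). Gdf5 was tested only because of its knockout counts, so this p is no independent support for the difference. As the wild-type sum was 18 counts, the ratio of summed counts is also given: 19.7, with an exact 95% counting interval from 12.3 to 33.7. Of all tested genes, 35 had a larger log2 fold change. Without KO2 the log2 fold change of Gdf5 was 4.21.

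The other ligands were barely detected. Bmp6, a BMP known for its part in iron regulation in liver, had 4, 9 and 3 counts in KO1, KO2 and KO3 and 2, 3 and 2 counts in WT1, WT2 and WT3. Its highest count lay in KO2, and KO3 shared its count of 3 with WT2. The ratio of summed counts was 2.15, and its counting interval from 0.838 to 6.19 includes no difference. With no filter on low counts the log2 fold change was 1.07 ± 0.73 (SE, adjusted p = 0.271, edgeR), and DESeq2 gave 1.09 with an adjusted p of 0.38. Bmp4, a ligand widely used in mesenchymal patterning, had 1 count in KO2 and 0 in the other 5 libraries, under the floor of 3 counts, so no fold is given. Of 12 other BMP-type ligands on a list of the pathway, 5 were in the tables (Bmp8b, Bmp10, Bmp15, Gdf2 and Gdf7) and 0 passed the filter, with a summed level of at most 0.164 CPM in any knockout library and 0.23 CPM in any wild-type library. Of the 8 BMP-type ligands analysed, a number without Bmp2, Gdf5 alone passed the filter, and only through its knockout counts.

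The ID genes moved in different directions. Id3 had 172, 222 and 154 counts in KO1, KO2 and KO3, against 103, 101 and 83 in WT1, WT2 and WT3. The lowest knockout library stood above the highest wild-type library. Id3 averaged 10.03 ± 1.82 CPM in knockout and 5.59 ± 0.715 CPM in wild type (SD, n = 3 each), which is 0.84 ± 0.16 (SE) higher on the log2 scale (adjusted p = 0.00172, edgeR). KO2 was the highest library, 0.42 (log2 CPM) above the mean of KO1 and KO3, and 478 genes of similar length (within 1.2-fold) had a median of 0.31 for the same difference. Without KO2 the log2 fold change of Id3 was 0.69 ± 0.14 (adjusted p = 2.19e-05), and with an offset for gene length it was 0.72 ± 0.13 (adjusted p = 0.00031).

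Id2 and Id4 were lower in knockout. Id2 had 56, 42 and 45 counts in KO1, KO2 and KO3, against 100, 107 and 90 counts in WT1, WT2 and WT3. All knockout libraries lay below all wild-type libraries. Its level was 2.62 ± 0.383 CPM in knockout and 5.79 ± 0.622 CPM in wild type, or −1.14 ± 0.16 (SE) on the log2 scale (adjusted p = 3.53e-04, edgeR). Id2 is also short, at 1272 bases, but KO2 was its lowest knockout library, 0.27 below the mean of the other 2, where genes of similar length were 0.26 above. Id4, the ID gene best known from neural and mammary tissue, had 33, 35 and 33 counts in KO1, KO2 and KO3, against 80, 75 and 93 in WT1, WT2 and WT3. Again no libraries of the groups overlapped. Its difference of −1.38 ± 0.16 (SE) in log2 (adjusted p = 1.02e-04, edgeR) was the largest fall among the members, with 1.85 ± 0.0584 CPM in knockout and 4.82 ± 0.456 CPM in wild type. The spread of Id4 over the knockout libraries (3.15% of the mean) was below the 17.2% that counting error alone gives for such counts, so this SD understates the error. The SE of Id4 may do so too, and DESeq2 gave −1.39 ± 0.26 (SE). Without KO2 the log2 fold changes were −1.05 for Id2 and −1.40 for Id4.

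Id1, the ID gene most often used as a readout of BMP signalling, did not pass the test. It had 118, 201 and 148 counts in KO1, KO2 and KO3 and 153, 148 and 129 counts in WT1, WT2 and WT3. The knockout libraries reached both below and above the wild-type ones. The mean was 8.56 ± 2.28 CPM in knockout and 8.38 ± 0.836 CPM in wild type, and the log2 fold change was 0.033 ± 0.19 (SE; adjusted p = 0.89, edgeR; 95% interval −0.39 to 0.45). Changes in either direction within this interval are compatible with these data, and the result does not show that the level stayed the same. The spread of Id1 over the knockout libraries was 26.7% of the mean, beside 8.02% from counting error, and over wild type 9.98% beside 8.35%. KO2 held 0.58 (log2 CPM) more Id1 than the mean of KO1 and KO3, where 467 genes of similar length had a median of 0.31. Without KO2 the estimate turned to −0.18 ± 0.14 (adjusted p = 0.231).

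**Figure D3:**
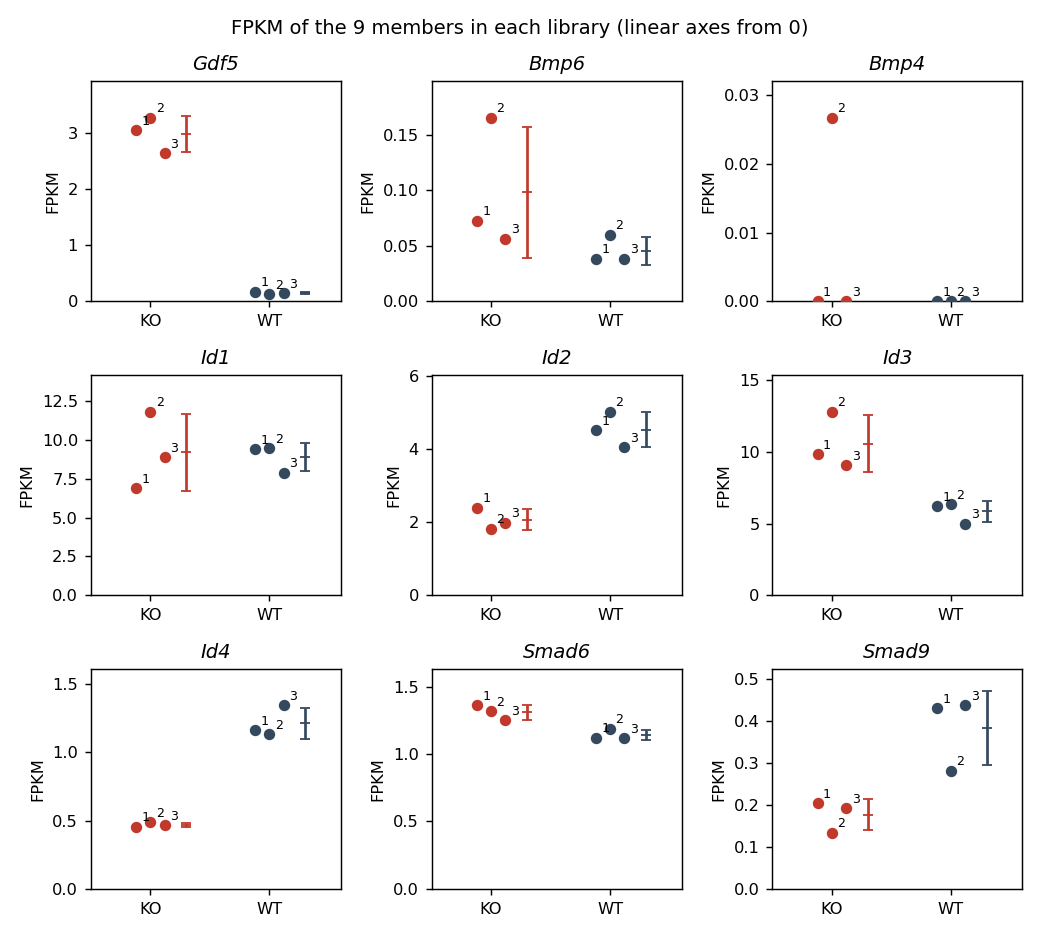
FPKM of the 9 members (vertical axes, linear, from 0) in each knockout and wild-type library. Points carry the replicate number, and bars give the mean with its SD over 3 libraries (none for Bmp4, which had 1 count). KO2 is the highest library for Id1 and Id3, and for Gdf5, Id2, Id3, Id4, Smad6 and Smad9 the groups do not overlap.

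The levels of different genes were compared in FPKM, which the authors scaled by gene length. In knockout cells the order was Id3 (10.6 ± 1.98 FPKM), Id1 (9.21 ± 2.50), Gdf5 (2.99 ± 0.322), Id2 (2.07 ± 0.298), Smad6 (1.31 ± 0.0559), Id4 (0.469 ± 0.0163), Smad9 (0.176 ± 0.0371), Bmp6 (0.0981 ± 0.0588) and Bmp4. In wild-type cells the order was Id1 (8.93 ± 0.891 FPKM), Id3 (5.84 ± 0.748), Id2 (4.53 ± 0.489), Id4 (1.21 ± 0.115), Smad6 (1.14 ± 0.0387), Smad9 (0.383 ± 0.0877), Gdf5 (0.15 ± 0.0225), Bmp6 (0.0455 ± 0.0124) and Bmp4. The ranges of neighbours overlapped between Id3 and Id1 and between Smad9 and Bmp6 in knockout, and between Id3 and Id2 and between Id4 and Smad6 in wild type. Gdf5 took the third place in knockout and the seventh in wild type. All members were modest or low in level: Id3 in knockout stood above 51.9% of the tested genes, Id1 in wild type above 46.6%, and Gdf5 above 23.1% in knockout and 2.0% in wild type.

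The summed FPKM of the 4 ID genes overlapped between the groups, while the shares of Id2, Id3 and Id4 in it did not. The sum was 19.6, 27.0 and 20.4 FPKM in KO1, KO2 and KO3 and 21.3, 21.95 and 18.3 FPKM in WT1, WT2 and WT3, with KO2 alone above the wild-type range. On the log2 scale knockout over wild type was 0.12 with all libraries and −0.037 without KO2. Id3 made up 50.2%, 47.5% and 44.4% of the sum in KO1, KO2 and KO3, against 29.2%, 28.8% and 27.3% in WT1, WT2 and WT3. Id2 made up 12.3%, 6.74% and 9.73% of the sum in the knockout libraries, against 21.2%, 22.9% and 22.15% in the wild-type libraries. Id4 held 2.14 ± 0.29% in knockout and 5.98 ± 1.19% in wild type, and Id1 held 40.9 ± 4.95% and 43.5 ± 0.587% (SD, n = 3 each). A share within a library does not depend on how libraries are scaled to each other. The ratio of Id3 to Id1, a pair of nearly equal length, was 1.43, 1.08 and 1.02 in KO1, KO2 and KO3 and 0.66, 0.669 and 0.631 in WT1, WT2 and WT3. Id1 was thus the more abundant of the pair in each wild-type library. Id3 was above Id1 in each knockout library, but only narrowly in KO2 (222 against 201 counts) and KO3 (154 against 148 counts). No test is given for these sums and shares, because the members were chosen with results of these data known.

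**Figure D4:**
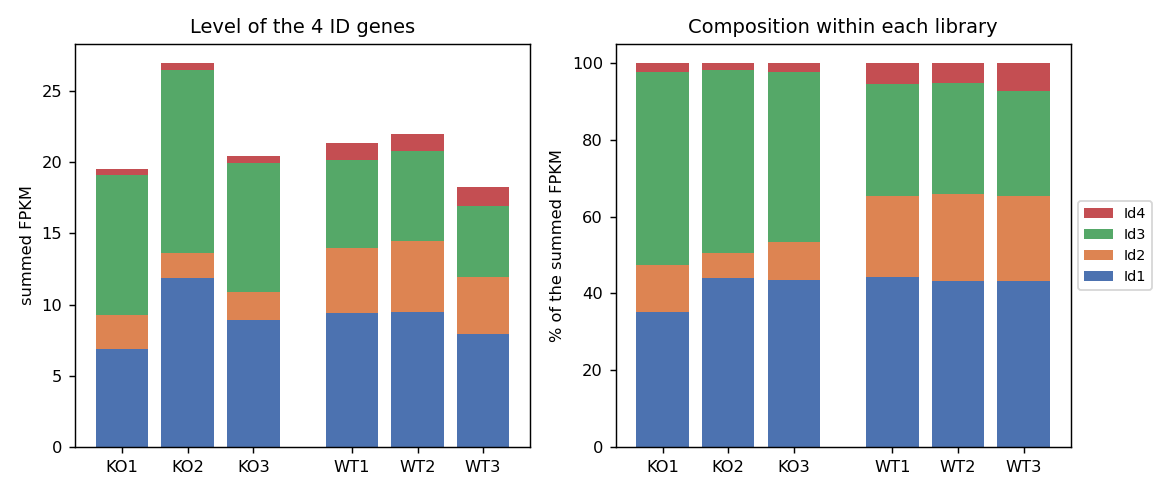
Summed FPKM of Id1, Id2, Id3 and Id4 (left, stacked bars) and the share of each gene in that sum in percent (right) for the 3 knockout and 3 wild-type libraries. The Id3 share lies between 44.4% and 50.2% in knockout and between 27.3% and 29.2% in wild type.

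Of the SMAD genes, Smad9 fell and Smad6 did not pass. Smad9 encodes SMAD9 (also called SMAD8), the least studied of the receptor-activated SMADs of the BMP branch. KO1, KO2 and KO3 held 23, 15 and 21 counts of it, against 46, 29 and 47 counts in WT1, WT2 and WT3. The groups did not overlap, and KO2 and WT2 were the lowest library of each. The level was 1.08 ± 0.232 CPM in knockout and 2.37 ± 0.544 CPM in wild type, or −1.13 ± 0.27 (SE) on the log2 scale (adjusted p = 0.00579, edgeR), and −0.96 without KO2. Smad6 had 73, 70 and 65 counts in KO1, KO2 and KO3 and 57, 58 and 57 counts in WT1, WT2 and WT3. Each knockout library stood above each wild-type library in CPM, but the difference of 0.19 ± 0.14 (SE) in log2 did not pass (adjusted p = 0.278, edgeR; 95% interval −0.13 to 0.51). Without KO2 it was also 0.19. The spread of Smad6 was 3.96% of the mean over knockout and 3.33% over wild type. Counting error alone gives 12.01% and 13.2% for such counts. The separate CPM ranges of Smad6 rest on this small spread. The SDs of Smad6 therefore understate the error. Its SE and interval may do so too, and DESeq2 gave 0.18 ± 0.24 (SE).

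Smad9 was a small part of the SMADs it belongs with. Summed over Smad1, Smad5 and Smad9, KO1, KO2 and KO3 had 29.3, 27.8 and 30.9 FPKM, against 31.1, 31.5 and 32.3 FPKM in WT1, WT2 and WT3. The Smad9 share of this sum was 0.694%, 0.483% and 0.621% in the knockout libraries, against 1.38%, 0.895% and 1.35% in the wild-type libraries. Smad1 rose (19.4 ± 0.961 FPKM in knockout, 13.7 ± 0.428 FPKM in wild type; log2 fold change 0.49 ± 0.064, adjusted p = 1.80e-04, edgeR), and Smad5 fell (9.74 ± 0.654 FPKM in knockout, 17.6 ± 0.142 FPKM in wild type; −0.86 ± 0.066, adjusted p = 7.82e-06). Smad1 was thus the most abundant of the 3 in each knockout library and Smad5 in each wild-type library. Smad1 was named after its values were seen.

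The rest of the pathway also moved in both directions. Of 13 BMP receptors and co-receptors 10 were tested, with 3 higher and 5 lower in knockout and a median log2 fold change of −0.23. Bmpr1a, the type I receptor that binds several BMPs, had 307, 255 and 297 CPM in KO1, KO2 and KO3, against 143, 152 and 148 CPM in WT1, WT2 and WT3, and was higher by 0.96 ± 0.077 (SE) in log2 (adjusted p = 1.08e-05, edgeR). The type II receptor genes Bmpr2 and Acvr2b fell by 0.63 ± 0.17 and 0.55 ± 0.13 on the log2 scale, and the co-receptor gene Eng (endoglin) rose by 0.94 ± 0.19 at a low level (2.73 ± 0.0642 CPM in knockout, 1.42 ± 0.191 CPM in wild type). Adjusted p was 0.0105 for Bmpr2, 0.00469 for Acvr2b and 0.00254 for Eng (edgeR). For Eng, DESeq2 gave 0.94 with a larger SE of 0.32. Bmpr2 was lowest in KO2 (73.5 CPM, beside 121 and 124 CPM in KO1 and KO3) and is long, at 11804 bases. Without KO2 its log2 fold change was −0.42, and with the offset for gene length −0.45. Acvr2b, at 12212 bases, stayed called but at −0.35 with the offset for gene length. Bmpr1b, the main receptor of GDF5, had 0 counts in the knockout libraries and 1 count in wild type, in WT2, and was not tested.

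Of 12 SMAD transducers and cofactors 11 were tested, with 4 higher and 6 lower and a median of −0.27. Besides Smad5, the ubiquitin ligase gene Smurf1, whose product marks BMP-branch SMADs for degradation, fell by 0.50 ± 0.065 on the log2 scale. Bambi, encoding a pseudoreceptor induced by BMP, rose by 0.61 ± 0.16 (4.68 ± 0.313 CPM in knockout, 3.06 ± 0.486 CPM in wild type), and Pmepa1, a feedback gene of TGF-beta signalling, rose by 0.56 ± 0.072. Adjusted p over Smurf1, Bambi and Pmepa1 ran up to 0.0102 (edgeR).

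Secreted antagonists, which keep BMP or activin ligands from their receptors, counted 4 rises and 5 falls among 11 tested of 17 listed, with a median of 0.06. Grem1 (gremlin 1) had 2, 2 and 1 counts in KO1, KO2 and KO3, against 2826, 2865 and 2863 counts in WT1, WT2 and WT3. The follistatin gene Fst rose by 1.49 ± 0.19 on the log2 scale and its relative Fstl3 by 1.12 ± 0.093, and Bmper, a secreted BMP-binding protein, fell by 0.68 ± 0.07. Grem1 was thus near 0 in every knockout library, and Fst and Fstl3 were higher in knockout. The largest adjusted p of these 4 genes was 1.96e-04 (edgeR). Of these genes, Grem1 passed the filter through wild type alone, so the direction of its call was largely set by it.

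Other transcription factors known to respond to BMP in some tissues counted 2 rises and 5 falls among 9 tested of 14 listed, with a median of −0.60. Atoh8, a bHLH gene induced by BMP signalling in endothelial and liver cells, had 273, 307 and 230 counts in KO1, KO2 and KO3, against 55, 56 and 68 counts in WT1, WT2 and WT3 (log2 fold change 2.09 ± 0.14 SE, adjusted p = 3.79e-06, edgeR). On the log2 scale Snai2, a mesenchymal repressor gene, fell by 1.25 ± 0.07, the T-box gene Tbx3 by 0.86 ± 0.057 and Sox9, a cartilage regulator, by 0.75 ± 0.061. The largest adjusted p of these 3 was 1.21e-05, for Sox9 (edgeR). Hey1, a Notch and BMP target, was named after its values were seen and had 0, 3 and 1 counts in KO1, KO2 and KO3 and 19, 13 and 20 counts in WT1, WT2 and WT3, so that it passed the filter through wild type alone.

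The bHLH partners of ID proteins counted 2 rises and 2 falls among 6 tested of 12 listed, with a median of −0.21. Of the E protein genes, Tcf12 fell by 0.94 ± 0.085 on the log2 scale and Tcf4 by 0.52 ± 0.098, and Tcf3 rose by 0.18 ± 0.053. Tcf4 did not pass with the offset for gene length (−0.08, adjusted p = 0.135, edgeR), and its listed length is 44258 bases. Tcf3 did not pass without WT2 (0.17, adjusted p = 0.0682) or without WT3 (0.18, adjusted p = 0.0574). Twist2, a repressor gene of mesenchymal cells, rose to 149 ± 17.7 CPM in knockout, against 85.3 ± 3.04 CPM in wild type (0.80 ± 0.086). Adjusted p was 2.19e-05 for Tcf12, 5.93e-05 for Twist2, 0.00155 for Tcf4 and 0.0146 for Tcf3 (edgeR). In FPKM, Twist2 (112 ± 13.9 in knockout, 63.65 ± 2.22 in wild type) and Tcf3 (42.7 ± 1.14 in knockout, 37.3 ± 0.422 in wild type) were above the sum of the 4 ID genes. Twist1, not called and named after its values were seen, was also above it (31.1 ± 3.12 in knockout, 28.7 ± 1.78 in wild type). Tcf12 had 11.98 ± 1.32 FPKM in knockout and 22.7 ± 0.662 in wild type, where the ID genes summed to 22.3 ± 4.05 and 20.5 ± 1.97. Tcf12 was thus above that sum in wild type only. Tcf4 had 3.83 ± 0.5385 FPKM in knockout and 5.47 ± 0.045 in wild type. These values rest on its listed length of 44258 bases, so its place beside the ID genes depends on that length. In CPM, Tcf4 averaged 169 in knockout and 243 in wild type, beside 146 and 128 for Tcf3 and 117 and 224 for Tcf12. Over all of these lists the background is the same 30.5% higher and 29.2% lower.

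**Figure D5:**
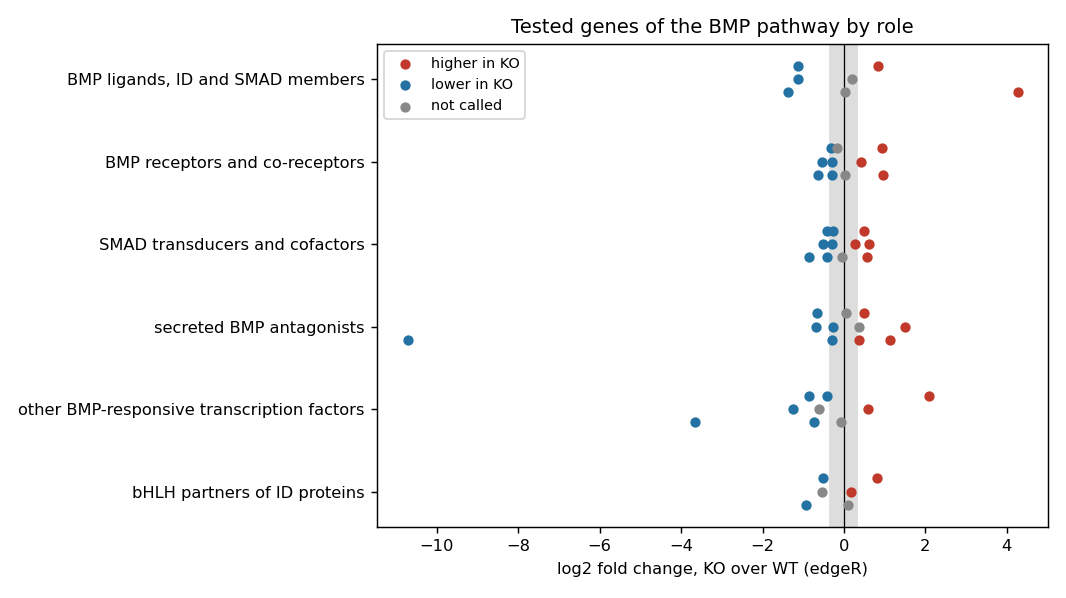
Log2 fold change of knockout over wild type (horizontal axis) for the tested members and for the tested genes of 5 lists of the pathway (rows), 1 point per gene, coloured by call, with the interquartile range of all tested genes as a grey band (−0.33 to 0.32). Each row holds genes on both sides of 0, Grem1 lies at a fitted −10.72 and Gdf5 at 4.27.

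Nearby genes on the chromosome were compared with the members, using gene order in GRCm38.p6. For each member the 20 nearest tested genes (10 on each side) were taken, and their calls are to be read beside the 30.5% higher and 29.2% lower among all tested genes. The neighbours of Id4 (chromosome 13) had a median log2 fold change of −0.28, with 0 called higher and 12 lower. The medians were 0.25 for Gdf5 (chromosome 2, 10 higher and 1 lower) and 0.14 for Id3 (chromosome 4, 8 higher and 4 lower). For Id4, Gdf5 and Id3 the median thus had the sign of the member. Around Id2 (chromosome 12) the median was 0.34, with 10 higher and 1 lower, and around Smad9 (chromosome 3) it was 0.15, with 10 higher and 4 lower, although Id2 and Smad9 fell. Id1 (chromosome 2) lay among neighbours with a median of 0.21, with 11 higher and 1 lower, and Smad6 (chromosome 9) among neighbours with a median of −0.17, with 2 higher and 8 lower. The part of neighbouring genes in the members' changes was not tested. Gdf5, Id4, Bmp4 and Bmp6 overlap annotated genes on the opposite strand, and if the counting did not use strand, reads of both cannot be told apart. Of the genes overlapping these 4, Txndc5 (over Bmp6) had from 4171 to 4523 counts in knockout and from 4327 to 4640 counts in wild type, and the others were not analysed here.

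Id3 was the only called member with a mean of 5 CPM or more. The gene whose profile over the 6 libraries was most like that of Id3 was Cdc34, a ubiquitin-conjugating enzyme gene. The root mean square difference between their centred log2 CPM profiles was 0.0587, followed by Fbxo24 (0.0665) and Rmnd5b (0.0719). Cdc34 averaged 90.5 ± 14.5 CPM in knockout and 51.2 ± 3.51 CPM in wild type (log2 fold change 0.82 ± 0.11, adjusted p = 2.29e-04, edgeR).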

How the data were processed

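RNA of 6 libraries (3 RAI16 knockout, 3 wild type) had been made with the TruSeq Stranded mRNA kit, per the labels' protocols. The authors deposited raw read counts per gene and FPKM values for the same 16000 genes. Per the submitters' processing notes, the tools were HISAT2, HTSeq, Cufflinks, DESeq and Trimmomatic, and the build was GRCm39. Their versions, the annotation release and the strand setting are not stated in those notes as used here. Each deposited FPKM value above 0 (84086 in all) equals its count over the library total and 1 length per gene, within 8.04e-05%, and gene lengths were recovered from this relation. No column belonged to other samples (0).

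After filterByExpr and TMM scaling, the quasi-likelihood test of edgeR 4.0.16 (in R 4.3.3) compared knockout with wild type, and p was adjusted over 11972 genes. CPM are counts scaled to TMM-adjusted totals. SEs come from the log2 fold change and the square root of F. Counting intervals are exact binomial at 95% and cover counting error only. Genes named outside the members are, per list, up to 4 called genes with the largest change and a mean of at least 1 CPM, the targeted gene, and the 3 genes nearest in profile (log2 CPM, prior count of 2) to the most changed called member with a mean of at least 5 CPM. The members and lists were chosen with earlier results of these data known. Alternatives were RLE, upper quartile and no scaling factors, no filter, DESeq2 1.42.0, limma 3.58.1 on log2(FPKM + 1) and log2(FPKM + 0.1), a replicate block, each library left out in turn, and gene-length offsets (lowess span 0.3), the last added after the data were seen.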

Additional observations from a re-analysis of the deposited data

How the results depend on the processing

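Under 15 alternatives (RLE size factors, upper quartile scaling, library totals, no filter, DESeq2, limma at both pseudocounts, a replicate block, each of the 6 libraries left out, and gene-length offsets), 2 members were called higher and 3 lower each time, and each of Gdf5, Id3, Id2, Id4 and Smad9 kept its direction and its call. Called genes over all genes ran from 6048 (without WT2) to 8586 (without KO2), against 7136 with all libraries. Id1, never called, turned to −0.10 with gene-length offsets and ranged from −0.18 (without KO2) to 0.21 (without KO1) when 1 library was left out. Its adjusted p ran from 0.231 to 0.952, and the cause was not tested. The size of the log2 fold change shrank with a pseudocount for low genes, to 1.79 for Gdf5, −0.59 for Id4, −0.23 for Smad9, 0.35 for Eng, 0.25 for Bambi, 0.88 for Fst and −6.60 for Grem1 on log2(FPKM + 1). The deviations of same-numbered libraries had correlations of −0.0725, −0.0938 and 0.0221 for numbers 1, 2 and 3. These values show no sign of pairing but cannot exclude that same-numbered libraries were prepared together. The fit with the replicate block called 6692 genes and left all member calls as they were. It gave Tcf3 0.18 with an adjusted p of 0.051, so that Tcf3 did not pass there. Depth limits Bmp4, Bmp6 and Smad9, with at most 1, 9 and 47 counts per library.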
